A study of Caenorhabditis elegans with 8 samples.

Results

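The translation initiation and elongation factors of the nematode Caenorhabditis elegans, the proteins that load ribosomes onto messenger RNA and move them along it, were followed at the mRNA level in fasting and fed adults of 4 strains. The members were chosen by gene name. They were the probe sets that the platform annotation assigned to one gene symbol starting with eif-, eef-, ife-, iff-, iftb- or pab-, or to ifg-1, inf-1, egl-45 or clu-1. This gave 64 probe sets for 41 genes among the 22548 probe sets of the array that are not controls, or 41 of the 17118 genes that have a probe set of their own. All 64 passed the filter on dim probe sets. No iftb- symbol occurred among them, and 19 genes had more than 1 probe set.

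RNA came from whole day 4 adults of mutants carrying drsh-1(ok369), daf-16(mu86) or ain-1(tm3681), and of wild type N2. The question of the series was what the microRNA machinery contributes to gene expression under fasting and to longevity. DRSH-1 is Drosha, which starts the processing of microRNA precursors, AIN-1 works in gene silencing by microRNAs, and DAF-16 is a FOXO factor that insulin signalling restrains. The animals were grown at 20 °C. On day 2 they were moved to plates without food (fasting) or with UV-killed OP50 bacteria (fed), and they were collected 2 days later. All 8 groups were kept on FUDR, which stops the production of progeny, so that no group shows these genes in reproducing adults. Each group was 1 array, and no label says whether an array held pooled plates or separate cultures.

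In translation initiation, eIF4E binds the cap of the mRNA, eIF4G joins eIF4E to the helicase eIF4A and to the poly(A) binding protein, eIF2 brings the initiator tRNA, eIF2B recharges eIF2 with GTP, and the many subunits of eIF3 form a scaffold on the small ribosomal subunit. In elongation, eEF1A delivers the aminoacyl-tRNAs, the eEF1B complex recharges eEF1A, and eEF2 moves the ribosome by one codon. Lowering several of the initiation factors, among them ife-2 and ifg-1, is known to lengthen the life of adult C. elegans.

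The median intensity lay between 35.3 and 37.8 on the 8 arrays. The daf-16 fasting array stood apart in its control probe sets. Its summed DapX spikes, a control of labelling, read 358 against 154 to 198 on the other 7, its summed BioB spikes, a control of hybridisation, 379.9 against 256 to 307, and its ubiquitin 3' to 5' ratio, a sign of RNA quality, 7.61 against 6.1 to 6.74. The fasting and fed drsh-1 arrays were closer to each other (Pearson correlation over the 15783 tested probe sets 0.989) than the fasting and fed arrays of ain-1 (0.953), daf-16 (0.926) or wild type (0.952). In the drsh-1 mutant, drsh-1 itself read 17.1 fasting and 14.0 fed on one probe set, against 183 to 300 in the other strains. Its other probe set read 357 and 397 in the mutant, above the 42.5 to 123 of the others. In the daf-16 mutant all 4 daf-16 probe sets lay below every array of the other strains. The lowest, 1 of the 4, read 8.98 fasting and 9.27 fed, against 62.4 to 89.9 in the other strains. The other 3 fell less far. Fasting and fed, they read 106 and 128 against 249 or more, 224 and 279 against 335 or more, and 193 and 311 against 350.5 or more. In the ain-1 mutant all 3 ain-1 probe sets were near wild type when fasting, with 202 against 204, 229 against 238 and 106 against 109, and read 99.6 against 132, 123 against 171 and 56.1 against 63.8 when fed. The sources used here do not say whether any of these probe sets lies in a deleted stretch, and one outside it would check nothing. In whole animals, fewer cells of a type and less RNA per cell cannot be told apart.

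Outside the drsh-1 mutant, fasting animals had more mRNA of a set of initiation factors, led by the poly(A) binding protein gene pab-2 and by eIF3 subunits. With limma over the ain-1, daf-16 and wild type arrays (strain as a block, Benjamini-Hochberg adjusted p under 0.05), 19 of the 64 probe sets, from 14 genes, were higher in fasting animals, against 15% of all tested probe sets. Only 1, of clu-1, was lower, against 8.91% of all. The median fasting change of the 64 was 0.20 on the log2(intensity + 16) scale, beside -0.0028 over all tested probe sets, and 49 of the 64 had a positive change. The 4 pab-2 probe sets, both of eif-3.E and both of eif-3.I were among the 19.

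On the plain counts of arrays, all 3 fasting arrays of ain-1, daf-16 and wild type lay above all 3 fed arrays for 31 of the 64 probe sets (48.4%), against 23.6% of all tested. They lay below them for 2 (3.12%), both of clu-1, against 18.8% of all. A call in this fit rests on 3 strain pairs and 2 residual degrees of freedom, and leaving out a pair lowers both. Without the daf-16 pair 21 members were higher (32.8%, against 19.3% of all) and 2 lower (3.12%, against 11.8%). Without wild type 15 were higher (23.4%, against 13.4%) and 0 lower (9.67% of all), and without ain-1 11 were higher (17.2%, against 10.1%) and 0 lower (5.92% of all). At an unadjusted p under 0.05 with all 3 pairs, 27 were higher (42.2%, against 22.5%) and 2 lower (3.12%, against 16.8%). Of the 20 calls, 11 from 7 genes (pab-2, eif-3.E, eif-3.I, eif-3.G, egl-45, ife-4 and eef-1A.2) held under all 11 alternatives fitted to single probe sets.

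**Figure D1:**
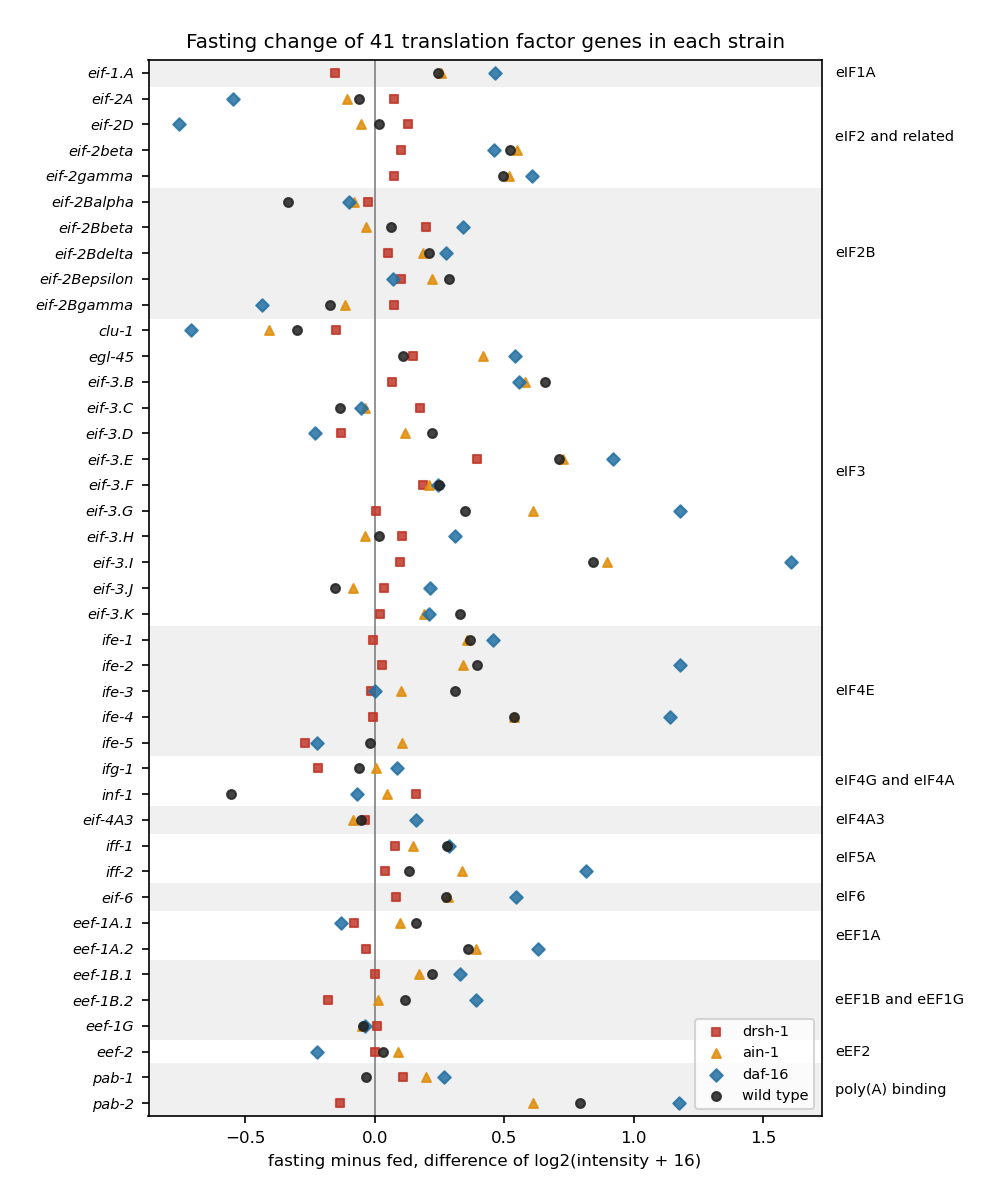
Fasting minus fed difference of log2(intensity + 16) for the 41 genes (brightest probe set of each), grouped by role, with 1 point per strain from 1 pair of arrays. The drsh-1 squares lie near 0 for most genes (range -0.27 to 0.39 over all 64 probe sets), while eif-3.I, pab-2, eif-3.E, eif-3.B and ife-4 lie to the right in the other 3 strains.

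Among the cap-binding eIF4E genes, 2 of 5 rose, or 2 of 6 probe sets, against 15% of all tested. None of the 6 fell, against 8.91% of all. In fasting against fed animals ife-4, a form found in neurons and muscle, read 61.2 against 61.6 in drsh-1, 88.0 against 55.6 in ain-1, 131 against 50.7 in daf-16 and 67.8 against 41.6 in wild type. Every fasting array outside drsh-1 lay above every fed one, and the drsh-1 pair did not differ by more than a fraction of a unit. The change over the 3 strains was 0.74 ± 0.16 (adjusted p = 0.022). For ife-1, a germline form needed for sperm development, the intensities were 1751 against 1761 in drsh-1, 2317 against 1807 in ain-1, 2330.4 against 1695 in daf-16 and 1824 against 1409 in wild type. Its fasting arrays were above its fed ones in the 3 strains, though by little between fasting wild type at 1824 and fed ain-1 at 1807. The change was 0.39 ± 0.08 (adjusted p = 0.0216), and its call ended under 3 of the 11 alternatives, at adjusted p up to 0.124.

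The somatic form ife-2 had 179 against 176 in drsh-1, 251 against 195 in ain-1, 434 against 183 in daf-16 and 296 against 222 in wild type. The groups of the 3 strains did not overlap, and the daf-16 pair had the widest gap. The change of 0.64 ± 0.19 had an adjusted p of 0.0619 and was not called. The essential form ife-3 read 1176 against 1188 in drsh-1, 1060.2 against 988 in ain-1, 1101 against 1099 in daf-16 and 1240.5 against 998 in wild type on its brighter probe set. Its fasting and fed arrays overlapped, with changes of 0.14 and 0.10 on its 2 probe sets. The germline form ife-5 gave 95.9 against 119 in drsh-1, 149 against 137 in ain-1, 77.3 against 93.0 in daf-16 and 66.5 against 67.6 in wild type. Its levels sorted by strain rather than by food, with both ain-1 arrays highest and both wild type arrays lowest, and its fasting change was -0.05 ± 0.13.

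The partners of eIF4E were not called in fasting. The scaffold gene ifg-1 (eIF4G) had changes of 0.01 and 0.38 on its 2 probe sets. The helicase gene inf-1 (eIF4A) had -0.19 ± 0.14, with wild type at 967 fasting against 1427 fed and both arrays of ain-1 and of daf-16 close together. For eif-4A3, the helicase of the exon junction complex, the change was 0.01.

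Among the genes that bring the initiator tRNA, those for the beta and gamma subunits of eIF2 rose. The gamma subunit gene eif-2gamma read 664 against 631 in drsh-1, 509.9 against 351 in ain-1, 628 against 406 in daf-16 and 509.9 against 357 in wild type in fasting against fed animals, and eif-2beta read 581 against 541 in drsh-1, 728 against 493 in ain-1, 729 against 525 in daf-16 and 605 against 416 in wild type. In both, the 3 fasting arrays lay above the 3 fed ones, while the 2 drsh-1 values of each gene lay closer together. The changes were 0.54 ± 0.11 (adjusted p = 0.0191) and 0.51 ± 0.10 (adjusted p = 0.0198). Both calls ended without the ain-1 or without the wild type pair, at adjusted p up to 0.134 and 0.169. The scanning factor gene eif-1.A rose on 1 of its 2 probe sets, by 0.47 ± 0.11 (adjusted p = 0.0261), with 0.32 (adjusted p = 0.0542) on the other. That call ended under 3 of the 11 alternatives, at adjusted p up to 0.173.

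The eIF2B genes, whose products recharge eIF2, were not called. Their changes ran from -0.24 for eif-2Bgamma to 0.22 for eif-2Bdelta. Also uncalled were eif-2D, a tRNA-delivering factor known from human cells, at -0.26 ± 0.19, and eif-2A, a factor of alternative initiation known from mammals, at -0.24 ± 0.12. In both the daf-16 pair had the widest gap, with 129.6 fasting against 229.9 fed for eif-2D and 1140.1 against 1672 for eif-2A.

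The eIF3 genes, with clu-1 counted among them, did not move as one. Of the 19 probe sets, 7 rose, against 15% of all tested. The 1 that fell, against 8.91% of all, was of clu-1, and no probe set of a subunit gene was called lower. The risers were eif-3.B, eif-3.E, eif-3.G and eif-3.I and the eIF3 A subunit gene egl-45. The brighter eif-3.I probe set read 409 against 381 in drsh-1, 309.6 against 159 in ain-1, 510.1 against 156 in daf-16 and 278 against 148 in wild type. Fasting was above fed in all 4 strains, least so in drsh-1, and fed drsh-1 stood well above the other fed arrays. The change was 1.12 ± 0.18, or 2.17-fold (adjusted p = 0.0102), and the second probe set gave 0.998 ± 0.16 (adjusted p = 0.0102).

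The eif-3.E gene read 284 against 212 in drsh-1, 219 against 126 in ain-1, 276 against 138 in daf-16 and 219.6 against 128 in wild type on the brighter probe set, and 136 against 149 in drsh-1, 144 against 82.7 in ain-1, 167 against 90.5 in daf-16 and 134 against 67.8 in wild type on the other. On the brighter one fasting exceeded fed in all 4 strains, and on the other in all but drsh-1. The changes were 0.79 ± 0.13 (adjusted p = 0.00928) and 0.77 ± 0.12 (adjusted p = 0.00864). For eif-3.B the intensities were 746 against 712 in drsh-1, 609 against 401 in ain-1, 677 against 455 in daf-16 and 717 against 448 in wild type. The 3 fasting arrays lay at 609 or more and the 3 fed ones at 455 or less, with both drsh-1 arrays inside the fasting range or just above it. The change was 0.60 ± 0.11 (adjusted p = 0.0128), but the adjusted p was 0.0873 without the ain-1 pair.

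The eif-3.G gene read 1133 against 735 in ain-1, 1668 against 728 in daf-16 and 924 against 723 in wild type, with the widest gap in daf-16, and its change was 0.71 ± 0.17 (adjusted p = 0.0307). The dimmer egl-45 probe set read 903 against 696 in ain-1, 1219 against 652 in daf-16 and 963 against 694 in wild type and rose by 0.57 ± 0.13 (adjusted p = 0.0286), while the brighter one had 0.36 ± 0.12 (adjusted p = 0.0772). The remaining subunit genes were not called. Their changes were -0.07 and -0.14 for eif-3.C, 0.04 and 0.02 for eif-3.D, 0.23 and 0.21 for eif-3.F, 0.10 for eif-3.H, -0.01 for eif-3.J and 0.24 for eif-3.K.

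The fall of clu-1 was the only one called, while 49 of the 64 member probe sets had a positive change. Other members, among them eif-2D, eif-2A and inf-1, had negative changes that were not called. The clu-1 gene thus stood apart by its call. This gene is the worm relative of yeast Clu1, which copurifies with eIF3, and of Drosophila clueless, which places mitochondria. Its brighter probe set read 815 against 905 in drsh-1, 598 against 798 in ain-1, 533 against 883 in daf-16 and 553 against 686 in wild type. Fasting was below fed in every strain, least so in drsh-1, and the change over the 3 strains was -0.47 ± 0.12 (adjusted p = 0.0399). The dimmer probe set had -0.48 ± 0.15 (adjusted p = 0.0641). Without the ain-1 pair the adjusted p of the called probe set was 0.157.

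**Figure D2:**
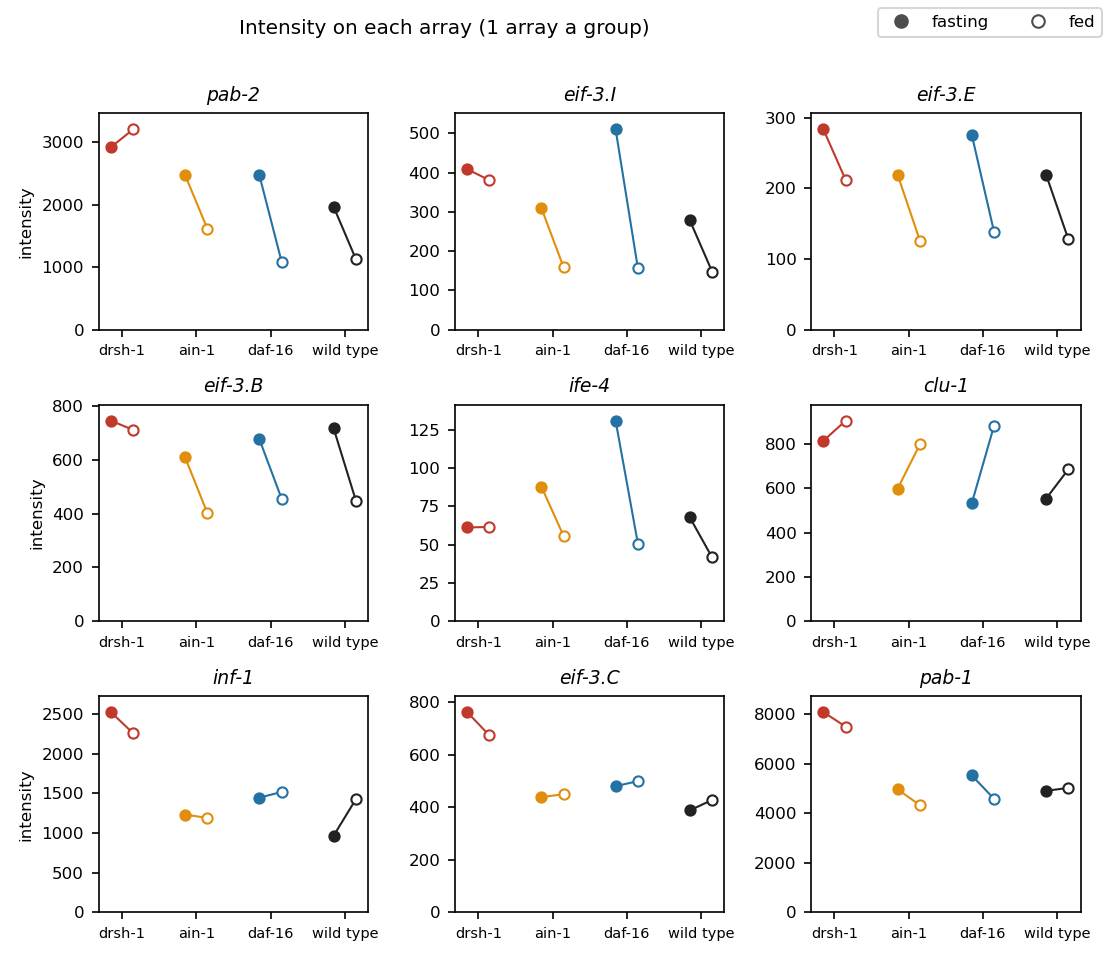
Deposited intensity on each of the 8 arrays for 9 members (linear axes from 0, 1 array per group), with fasting filled and fed open for each strain. In the upper 2 rows the pairs of ain-1, daf-16 and wild type slope the same way while the drsh-1 pair is flatter, and in the bottom row (inf-1, eif-3.C and pab-1) both drsh-1 arrays stand above the other 6.

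The eIF5A genes encode the hypusine-bearing factor that keeps ribosomes moving at difficult sequences. The germline gene iff-1 read 7155 against 6767 in drsh-1, 8593 against 7744 in ain-1, 9504 against 7778 in daf-16 and 7932 against 6541 in wild type. The 3 fasting arrays lay above the 3 fed ones, though 7932 in fasting wild type exceeded fed daf-16 at 7778 by little. The change was 0.24 ± 0.06 (adjusted p = 0.038), and its call ended under 7 of the 11 alternatives. The somatic gene iff-2 read 3346 against 3255 in drsh-1, 2880.5 against 2277 in ain-1, 3487 against 1972 in daf-16 and 2554 against 2325 in wild type on the brighter probe set and 1576 against 1715 in drsh-1, 1326 against 1056 in ain-1, 1762 against 1058 in daf-16 and 1330.2 against 1133 in wild type on the other. The groups of the 3 strains did not overlap, but changes of 0.43 ± 0.14 and 0.43 ± 0.13 had adjusted p of 0.0723 and 0.0557. For eif-6, which keeps large ribosomal subunits from joining small ones too early, the brighter probe set rose by 0.37 ± 0.10 (adjusted p = 0.0462) and the other had 0.33 ± 0.13 (adjusted p = 0.113). That call too ended under 7 alternatives.

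Of the elongation factors, 1 of 12 probe sets rose, against 15% of all tested, and 0 fell, against 8.91%. The eEF1A gene eef-1A.2 rose on 1 of 3 probe sets, which read 4836 against 4944 in drsh-1, 4461 against 3398 in ain-1, 4323 against 2784 in daf-16 and 3828 against 2982 in wild type, with a change of 0.46 ± 0.09 (adjusted p = 0.0142). The second probe set read 3071 against 3165 in drsh-1, 2364 against 1964 in ain-1, 2159.5 against 1931 in daf-16 and 2142 against 1933 in wild type, and its change was 0.19 ± 0.08 (adjusted p = 0.143). The dimmest one read 46.1 against 42.8 in drsh-1, 39.1 against 34.0 in ain-1, 40.3 against 30.02 in daf-16 and 36.5 against 32.2 in wild type and had 0.19 ± 0.08. On all 3 the fasting arrays of ain-1, daf-16 and wild type lay above their fed arrays.

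The paralog eef-1A.1 read 10432 against 11040.0 in drsh-1, 9608 against 8979.7 in ain-1, 8837 against 9686 in daf-16 and 9999 against 8955 in wild type on its brighter probe set and 7514 against 7737 in drsh-1, 7122 against 6723 in ain-1, 6840.1 against 6989 in daf-16 and 7295 against 6726 in wild type on the other. Fasting was above fed in ain-1 and wild type and below it in daf-16 and drsh-1 on both. Its changes were 0.04 ± 0.07 and 0.06 ± 0.06. The eEF1A genes are near-identical and 4 of their 5 probe sets carry a suffix for shared or cross-hybridising probes, so their signals may be mixed. Among the exchange factors, eef-1B.1 had 0.24 ± 0.07 (adjusted p = 0.0532), eef-1B.2 0.17 and 0.25, and eef-1G, the gamma subunit, -0.04 and -0.03. The translocase gene eef-2 had -0.03 and -0.02. None of these 7 probe sets was called.

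The poly(A) binding proteins differed from each other. The brightest pab-2 probe set read 2924 against 3210.1 in drsh-1, 2474 against 1615 in ain-1, 2474 against 1086 in daf-16 and 1969.6 against 1129.7 in wild type. The one with the largest change read 1715 against 1531 in drsh-1, 1309 against 726 in ain-1, 1299 against 498 in daf-16 and 985 against 596 in wild type. On all 4 pab-2 probe sets the 3 fasting arrays lay above the 3 fed ones, and the drsh-1 arrays, fasting and fed, lay above every fed array of the other strains. The changes were 0.86 ± 0.13 (adjusted p = 0.00726) and 0.97 ± 0.15 (adjusted p = 0.00824). The other pab-2 probe sets read 2958 against 2787 in drsh-1, 2624 against 1466 in ain-1, 1974 against 1230.0 in daf-16 and 1938 against 1502 in wild type, and 836 against 795 in drsh-1, 826 against 495 in ain-1, 805 against 343 in daf-16 and 656 against 442 in wild type. They rose by 0.62 ± 0.11 (adjusted p = 0.014) and 0.82 ± 0.15 (adjusted p = 0.0142). The smallest of these changes was no longer called without the ain-1 pair (adjusted p = 0.0657). The 3 probe sets of pab-1, the form needed in the germline, had 0.14, 0.14 and 0.15, and none was called.

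By position, 4 member genes lie on the X chromosome (RefSeq, assembly WBcel235), namely pab-2, eef-1A.2, ife-2 and ife-4. Of their 9 probe sets 6 rose, and their median change was 0.64. Among all tested X-linked probe sets with 1 matched gene 30.2% were called higher, with a median of 0.17, against 12.5% and -0.02 on the autosomes. The 55 autosomal member probe sets had 13 calls higher and a median of 0.15.

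With the drsh-1 pair in the fit, fasting over 4 strains was called for 1 member, higher on eif-3.E at 0.69 ± 0.13 (adjusted p = 0.0428), against 0.405% of all tested probe sets. None was lower, against 2.86% of all (limma). At an unadjusted p under 0.05, 22 were higher (34.4%, against 17.5% of all) and 2 lower (3.12%, against 12.6%), and with arrayWeights 28 were called higher (43.8%, against 23.4%) and 2 lower (3.12%, against 16.9%). The largest other changes among the brightest probe sets were 0.86 ± 0.23 for eif-3.I, 0.61 ± 0.20 for pab-2 and 0.55 ± 0.18 for ife-4 on the positive side. On the negative side they were -0.39 ± 0.12 for clu-1, -0.17 for eif-2D, -0.16 for eif-2Bgamma and -0.16 for eif-2A. The call of eif-3.E ended without any one of the other 3 strains (adjusted p from 0.135 to 0.24). Fasting exceeded fed in all 4 strains for 26 of the 64 probe sets (40.6%), against 19.9% of all tested, and was below it for 3 (4.69%), against 18.2%.

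The drsh-1 pair had the smallest member changes of the 4 strains by their median. The medians of the fasting minus fed differences were 0.03 in drsh-1, 0.17 in ain-1, 0.29 in daf-16 and 0.20 in wild type. In that order 40, 50, 46 and 50 of the 64 were positive (62.5%, 78.1%, 71.9% and 78.1%), against 51.5%, 52.4%, 48.7% and 53.1% of all tested. The 19 probe sets that rose in the other 3 strains had differences from -0.13 to 0.39 in drsh-1, with a median of 0.07. Fed drsh-1 lay above all 3 other fed arrays for 16 of these 19 (84.2%), and its level was a median of 0.69 above the mean of the other fed arrays and 0.01 above the mean of the other fasting arrays. Over all 2360 probe sets that rose, the median drsh-1 difference was 0.05, 66.7% had fed drsh-1 above the other fed arrays, and the median gaps were 0.34 and -0.33. The 19 were chosen on the same fed arrays that drsh-1 is set against here, so these gaps are a description.

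A test of the drsh-1 fasting change against that of the other strains called no member in limma, and 0% of all tested probe sets in either direction. At an unadjusted p under 0.05, 9 members (14.1%, against 8.61% of all tested) had a lower change in drsh-1 and 0 a higher one (5.01% of all). With arrayWeights, tried after the data had been seen, 10 were lower (15.6%, against 8.07% of all) and 0 higher (4.69% of all) at the adjusted threshold. The differences were -1.02 ± 0.37 (adjusted p = 0.316) for eif-3.I, -0.99 ± 0.25 (adjusted p = 0.233) for pab-2, -0.74 ± 0.31 (adjusted p = 0.376) for ife-4 and -0.71 ± 0.34 (adjusted p = 0.429) for eif-3.G. On the positive side eif-2D, inf-1, clu-1 and eif-2Bgamma had 0.39, 0.35, 0.32 and 0.32. The fit leaves 2 residual degrees of freedom.

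The same test called no member for daf-16, ain-1 or wild type, nor any probe set (0%). At an unadjusted p under 0.05 the members counted 11 higher (17.2%, against 6.23% of all tested) and 3 lower (4.69%, against 8.29%) for daf-16. They counted 0 higher and 0 lower for ain-1 (0.165% and 0.931% of all), and 0 higher and 1 lower for wild type (0.45% and 0.577% of all). With arrayWeights no member was called for these 3 strains. In daf-16 the largest differences among the brightest probe sets were 0.99 ± 0.37 for eif-3.I, 0.92 ± 0.24 for ife-2, 0.86 ± 0.27 for eif-3.G and 0.78 ± 0.30 for ife-4. On the negative side they were -0.79 ± 0.21 for eif-2D and -0.51 ± 0.17 for eif-2A. These rest on the daf-16 fasting array, with the control values given above, whose part in them was not tested. In wild type the widest was -0.60 ± 0.24 for inf-1.

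In the drsh-1 mutant, 10 of the 41 genes, of initiation and of elongation, were higher than in wild type. Against wild type (limma, food as a block, all 8 arrays), 11 of the 64 probe sets, from 10 genes, were higher in drsh-1, against 8.04% of all tested. None was lower, against 3.74% of all. At an unadjusted p under 0.05, 31 were higher (48.4%, against 17.4% of all) and 1 lower (1.56%, against 11.4%), and arrayWeights called 10 higher (15.6%, against 7.44%) and 0 lower (3.39% of all). The median member difference was 0.39, beside -0.0022 over all tested, and 57 of the 64 were positive, against 7849 of the 15783 tested. Most members were also positive against wild type in the other mutants, 48 of the 64 in ain-1 and 56 in daf-16. Both drsh-1 arrays lay above the other 6 for 28 of the 64 (43.8%), against 18.1% of all, and below them for 2 (3.12%), against 14.5%. Fed drsh-1 exceeded fed wild type for 61 of the 64 (95.3%), against 52.2% of all tested. Fasting drsh-1 exceeded fasting wild type for 51 (79.7%), against 51.4% of all. The medians were 0.44 fed and 0.34 fasting.

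The number of calls depended on the ain-1 arrays, which enter the fit through the spread and the food term. Without them 2 members were called higher (3.12%, against 4.05% of all tested), and without the food block 2 (3.12%, against 3% of all), so that the share of members called was then near the background. Without the daf-16 arrays 16 were called higher (25%, against 10.6%). None was called lower without the ain-1 arrays (1.92% of all), without the food block (0.589%) or without the daf-16 arrays (5.35%). The median member difference was 0.39 under each of these settings, but it could not have moved. With 1 fed and 1 fasting array per strain, the fitted difference rests on the drsh-1 and wild type arrays alone. Only its error changes with the other arrays or the block. Of the 11 calls only 1, of inf-1, held under all 11 alternatives fitted to single probe sets. That of pab-1 was lost in 1 of them (limma adjusted p = 0.0516 without the food block), as was that of eif-3.C (up to 0.0689). Those of eif-3.F, eif-2Bepsilon and eef-1A.2 ended in 2 each. The calls of eif-2A and pab-2 ended in 3 each, at adjusted p up to 0.0998 and 0.318. This comparison and the fasting comparisons share the wild type arrays, and 1 probe set, of pab-2, was called in both.

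**Figure D3:**
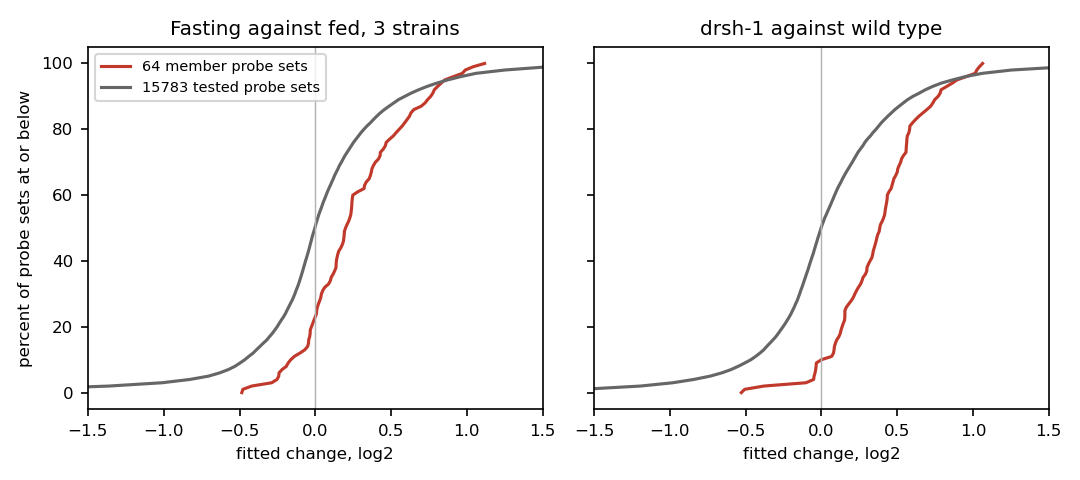
Share of probe sets (percent, y axis) at or below each fitted log2 change (x axis, shown from -1.5 to 1.5) for the 64 member probe sets (red) and the 15783 tested probe sets (grey). The member curves lie right of the grey ones through the middle of both panels, with medians of 0.20 against -0.0028 for fasting over 3 strains and 0.39 against -0.0022 for drsh-1, and the curves meet at the upper end.

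The eIF4A helicase gene inf-1 read, fasting and fed, 2525 and 2258 for drsh-1, 1233 and 1192 for ain-1, 1447 and 1518 for daf-16, and 967 and 1427 for wild type. Both drsh-1 arrays lay above the other 6, and wild type fasting was lowest. The difference was 1.01 ± 0.19, or 2.02-fold (adjusted p = 0.0194). Its partner ifg-1 had 0.56 ± 0.16 (adjusted p = 0.0698) on the brighter probe set, with both drsh-1 arrays again highest, and 0.14 on the other.

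For the poly(A) binding protein gene pab-1 the brightest probe set read 8072 and 7489 for drsh-1, 4961 and 4323 for ain-1, 5518 and 4577 for daf-16, and 4901 and 5017 for wild type. The drsh-1 arrays were highest, and fasting daf-16 came next. The difference was 0.65 ± 0.11 (adjusted p = 0.0137). The other 2 pab-1 probe sets had 0.40 ± 0.10 (adjusted p = 0.0524) and 0.48 ± 0.12 (adjusted p = 0.0545). The pab-2 probe set with the largest fasting change was also called here, at 1.06 ± 0.26 (adjusted p = 0.0462), and wild type stood at 985 fasting and 596 fed. The food gap within wild type was thus wide, and the other 3 pab-2 probe sets, at 1.03, 0.75 and 0.58, had adjusted p of 0.0617, 0.0509 and 0.186.

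Among the eIF3 subunits, eif-3.C and eif-3.F were higher in drsh-1, and neither was among the fasting calls. The brighter eif-3.C probe set read, fasting and fed, 763 and 675 for drsh-1, 439 and 451 for ain-1, 481 and 500.2 for daf-16, and 389 and 429 for wild type. That of eif-3.F read 1784 and 1564 for drsh-1, 1390.1 and 1200.2 for ain-1, 1268 and 1067 for daf-16, and 1124 and 944 for wild type. In both genes the 2 drsh-1 arrays were the highest of the 8. The differences were 0.79 ± 0.15 (adjusted p = 0.0198) and 0.69 ± 0.11 (adjusted p = 0.0144), with 0.56 ± 0.19 and 0.43 ± 0.14 on the second probe sets. The largest uncalled difference was that of eif-3.I, 0.90 ± 0.33 (adjusted p = 0.126), where fed drsh-1 at 381 stood against 148 in fed wild type and fasting drsh-1 at 409 against 278. The smallest was that of eif-3.K, -0.04.

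The eIF2B epsilon subunit gene eif-2Bepsilon, which encodes the catalytic subunit of that complex, read 169 and 156 for drsh-1, 113 and 94.9 for ain-1, 119.7 and 113 for daf-16, and 98.7 and 78.0 for wild type. The alternative initiation factor gene eif-2A read 2164 and 2054 for drsh-1, 1425 and 1538 for ain-1, 1140.1 and 1672 for daf-16, and 1239.8 and 1294 for wild type. Both drsh-1 arrays were the highest in each gene, and the wild type arrays were among the lowest. The differences were 0.78 ± 0.16 (adjusted p = 0.0257) and 0.73 ± 0.17 (adjusted p = 0.0395). The other 4 eIF2B genes ran from 0.08 for eif-2Bgamma to 0.52 for eif-2Bbeta, and eif-2gamma had 0.58 ± 0.17 (adjusted p = 0.0797), with none called.

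In elongation, the second eef-1A.2 probe set, with the values given above, had both drsh-1 arrays at 3071 or more and the other 6 at 2364 or less, a difference of 0.61 ± 0.12 (adjusted p = 0.0226). The eEF1 gamma gene eef-1G read 6845 and 6809 for drsh-1, 5096 and 5278 for ain-1, 5440.4 and 5585 for daf-16, and 5205 and 5367 for wild type on the brighter probe set and 5325 and 5557 for drsh-1, 3932 and 4119.5 for ain-1, 4275 and 4508 for daf-16, and 4227 and 4108 for wild type on the other. For the translocase gene eef-2 the called probe set read 8342 and 7809.9 for drsh-1, 6033 and 6084 for ain-1, 6052 and 6282 for daf-16, and 6184 and 6155 for wild type. The 2 drsh-1 arrays were the highest on each of these, and the other 6 lay within a narrow band. The differences were 0.37 ± 0.09 and 0.38 ± 0.09 for eef-1G (adjusted p = 0.0406 and 0.0453) and 0.39 ± 0.09 (adjusted p = 0.0374) for eef-2, with 0.32 ± 0.10 on its other probe set. The eef-1G calls ended under 8 alternatives each and that of eef-2 under 5, with adjusted p up to 0.123.

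Not all members stood higher in drsh-1. The exon junction helicase eif-4A3 read 78.1 and 80.5 for drsh-1, 118 and 126 for ain-1, 155 and 137 for daf-16, and 119 and 124 for wild type. Both drsh-1 arrays lay below the other 6, and the difference of -0.53 ± 0.16 had an adjusted p of 0.0804. It was called under quantile normalization (0.0446) and without the mean-variance trend (0.0395). The somatic cap-binding gene ife-2 was also lowest on the 2 drsh-1 arrays, at -0.49 ± 0.27 (adjusted p = 0.284). The germline gene iff-1 had -0.05, and eif-6 -0.03 and -0.05.

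**Figure D4:**
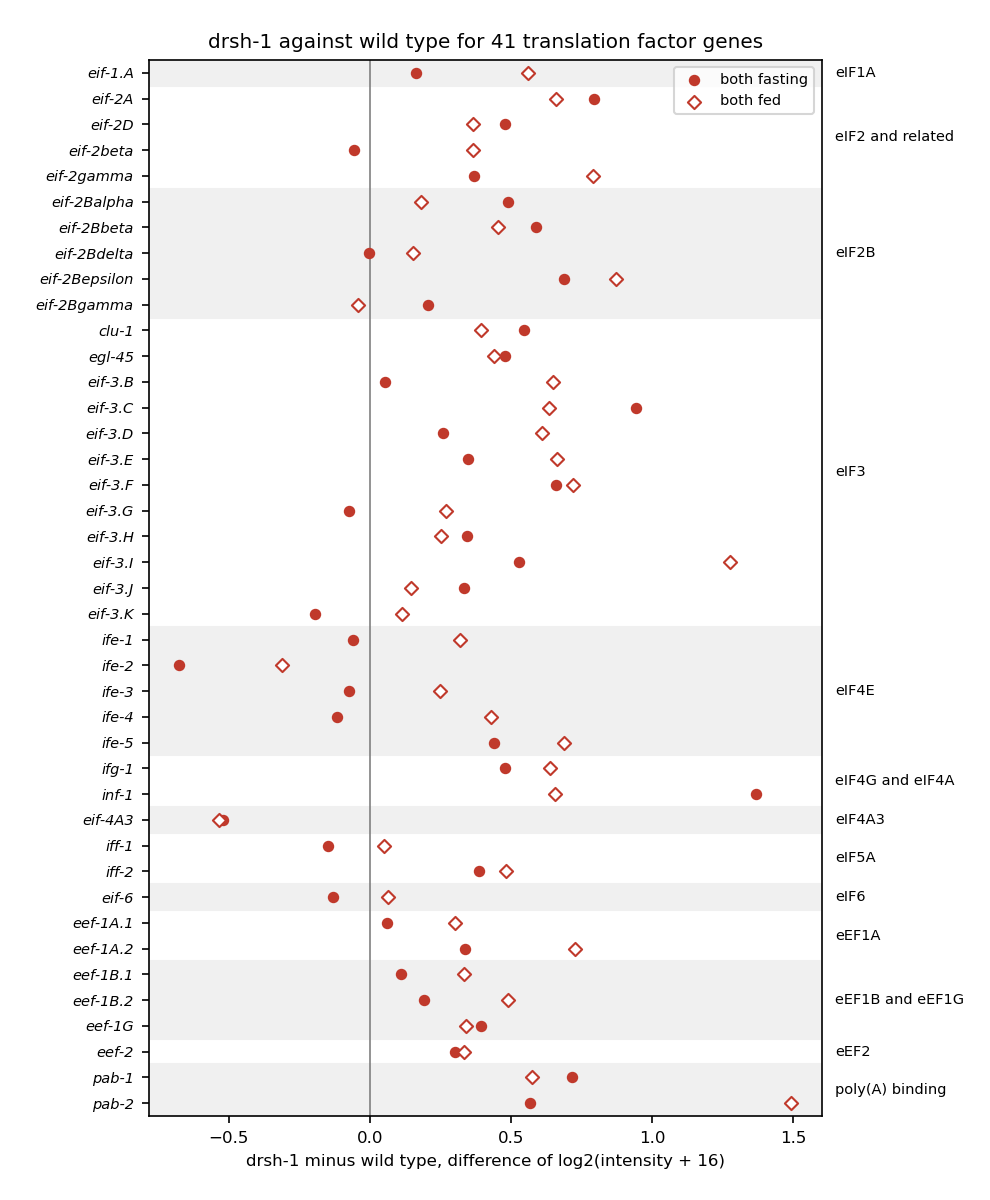
Difference of log2(intensity + 16) between drsh-1 and wild type for the 41 genes (brightest probe set of each), grouped by role, with both strains fasting (filled circles) and both fed (open diamonds), each from 1 pair of arrays. Fed differences are positive for all but 3 of the 64 probe sets, pab-2 and eif-3.I have the widest fed ones and inf-1 the widest fasting one, and eif-4A3 and ife-2 lie left of 0 in both.

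No member was called in the ain-1 or the daf-16 mutant. In ain-1 against wild type limma called 0 higher and 0 lower, against 0.00634% and 0.0444% of all tested, with 3 higher (4.69%, against 3.39% of all) and 0 lower (2.46% of all) at an unadjusted p under 0.05 and 1 higher with arrayWeights (1.56%, against 1.66%). These shares are near the background. The member called with arrayWeights was the germline eIF4E gene ife-5, which read 149 fasting and 137 fed in ain-1 against 66.5 and 67.6 in wild type. Its difference of 0.93 ± 0.17 had an adjusted p of 0.28, with a range of 0.00936 to 0.764 over the alternatives. The next were pab-2 at 0.42, ife-1 at 0.35 and eif-3.F at 0.32. The lowest among the brightest probe sets were eif-3.J at -0.21, ife-2 at -0.20, eif-3.B at -0.19 and egl-45 at -0.14. Over all member probe sets the lowest was -0.25, on the dimmer one of ife-3. The median over the members was 0.12, beside 0.01 over all tested, and 48 of the 64 were positive, against 8289 of the 15783 tested.

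In daf-16 against wild type limma called 0 higher and 0 lower, against 0% of all tested in each direction, with 5 higher (7.81%, against 4.56% of all) and 0 lower (4.2% of all) at an unadjusted p under 0.05 and none with arrayWeights. Among the brightest probe sets the highest were ife-4 at 0.51 ± 0.26, eif-3.I at 0.46 ± 0.33, eif-3.G at 0.43 ± 0.26 and ifg-1 at 0.40 ± 0.16. The lowest of these were eef-1A.1 and eif-3.B, both at -0.03, ife-3 at -0.02 and eef-2 at 0.02. Over all member probe sets the differences ran from -0.13, on a dimmer one of pab-2, to 0.57, on the dimmer one of ifg-1. The median over the members was 0.19, beside 0.0365 over all tested, with 0.14 between the fed arrays and 0.28 between the fasting arrays. Of the 64 members 56 were positive, against 9101 of the 15783 tested.

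The other genes of the pathway were called in fasting about as often as all probe sets. Of 21 listed, 19 had a probe set of their own under that name. Over the 3 strains 3 rose (15.8%, against 15% of all tested) and 0 fell (8.91% of all, and 1 of the 19 lower at an unadjusted p under 0.05), with a median of -0.06. The risers were dohh-1, the hydroxylase that completes hypusine on eIF5A, with 1062 against 988 in drsh-1, 1234 against 812 in ain-1, 1438 against 690.3 in daf-16 and 969 against 569 in wild type, the eIF2 kinase gene pek-1 with 197 against 176 in drsh-1, 210.3 against 138 in ain-1, 231 against 116 in daf-16 and 187 against 120.4 in wild type, and the eEF2 kinase gene efk-1 with 515 against 453 in drsh-1, 415 against 353 in ain-1, 481 against 317 in daf-16 and 477 against 259.5 in wild type. In each, fasting exceeded fed in all 4 strains, least so in drsh-1. Their changes were 0.80 ± 0.12 (adjusted p = 0.00805), 0.67 ± 0.14 (adjusted p = 0.019) and 0.55 ± 0.15 (adjusted p = 0.0467). The release factor genes erfa-1 and erfa-3 had -0.26 and -0.28, and the growth kinases let-363 (TOR) and rsks-1 (S6 kinase) -0.05 and 0.27.

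In drsh-1 against wild type 2 of the 19 were higher (10.5%, near the 8.04% of all tested) and 0 lower (3.74% of all, and 0 of the 19 at an unadjusted p under 0.05 too), with a median of 0.29. One was gcn-1, whose yeast relative activates the eIF2 kinase Gcn2, with 467 and 487 for drsh-1, 196 and 196 for ain-1, 188 and 234 for daf-16, and 152 and 188 for wild type. The other was mxt-1, named after a Drosophila protein that binds eIF4E, with 139 and 138 for drsh-1, 66.6 and 75.3 for ain-1, 59.1 and 56.1 for daf-16, and 76.9 and 84.7 for wild type. Both drsh-1 arrays were the highest in each, and the differences were 1.41 ± 0.16 (adjusted p = 0.00457) and 0.67 ± 0.15 (adjusted p = 0.0355). Among 33 aminoacyl-tRNA synthetase genes, 11 were higher in drsh-1 (33.3%, against 8.04% of all tested) and 0 lower (3.74% of all), with a median of 0.57. In fasting over 3 strains 6 of them rose (18.2%, near the 15% of all) and 1 fell (3.03%, against 8.91%), with a median of -0.03. The 75 cytosolic ribosomal protein genes had medians of 0.06 in drsh-1 and 0.09 in fasting. In drsh-1 3 were higher (4%, below the 8.04% of all tested) and 0 lower (3.74% of all). In fasting 3 were higher (4%, below the 15% of all) and 1 lower (1.33%, against 8.91%).

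Some markers of tissues were called in both comparisons, and their part in the member values was not tested. In fasting over 3 strains 5 of 8 oocyte and eggshell markers fell (median -0.58), as did 4 of 6 intestine markers (median -1.25), 5 of 6 muscle markers (median -1.19) and 1 of 8 germline markers (median -0.32). None of 6 neuron markers (median 0.14) and none of the 4 sperm markers tested, of 6 (median -0.05), was called. Of all tested probe sets 15% were called higher and 8.91% lower, so that 1 of 8 germline markers is near the share of all. Summed oocyte markers were at 25409.7 to 36097 in the 3 fasting arrays against 37637 to 41584 in the 3 fed ones. The sums were 7756 to 9311 fasting against 10313 to 12375 fed for the germline, 4789.7 to 5485 against 5969.8 to 8133 for the intestine, 1121 to 2291 against 2450.2 to 5616 for muscle, and 2048 to 2602 against 1915 to 1939 for neurons.

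In drsh-1 against wild type, 1 of 8 germline markers was higher (median 0.27) and 1 of 8 oocyte markers lower (median -0.28). Of 6 intestine markers 2 were lower (median -0.08), and of 6 muscle markers 1 was higher and 2 lower (median -0.54). Of 6 neuron markers 1 was higher (median 0.39), and no sperm marker was called (median -0.14). Among all tested probe sets 8.04% were higher and 3.74% lower, so that 1 call in a list of 6 or 8 says little. Fasting and fed, the drsh-1 sums were 11803 and 11654 for the germline against 9311 and 10736 in wild type, 30322 and 31493 for oocytes against 36097 and 40679, 2557 and 3945 for the intestine against 4789.7 and 7283, and 1965 and 2889 for muscle against 2291 and 5616. Neuron markers summed to 2105 and 2189 in drsh-1 against 2048 and 1939 in wild type. Sperm markers summed to 167.9 to 211 over the 8 arrays, and 2 of the 6 fell under the filter. No marker was at 0 on any array.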

How the data were processed

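Affymetrix C. elegans arrays were hybridised with biotin-labelled RNA made by 3-prime in vitro transcription from Trizol extracts, per the labels' protocols, with 1 array for each of the 8 groups. The deposited values are intensity on a linear scale for 22625 probe sets. The authors' summarisation and normalization are not given in the sources used here, and no further scaling was applied. The 77 control probe sets were left out, as were the 30% of the other 22548 with the lowest arithmetic mean over the arrays (under 15.8), which left 15783.

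A pseudocount of 16 was added before log2, so that changes of dim genes come out too small, and the values were fitted with limma 3.58.1 in R 4.3.3 (lmFit, eBayes with a trend). Fasting was tested with strain as a block over 4 strains, and over 3 without drsh-1, a fit added because earlier results had shown a different drsh-1 response. Mutants were compared with wild type over all 8 arrays, food being the block, and the response of a strain against the other 3 by an interaction term. Adjusted p-values are Benjamini-Hochberg over all tested probe sets, with calls under 0.05. Errors are standard errors of the fit. With 1 array a group, p-values measure only the spread of these arrays around the additive model, which may be technical, and so few arrays limit the precision.

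Genes were named by the platform annotation given with the series, updated to RefSeq (WBcel235), where 20701 of 20766 single symbols matched. Probe sets of a gene were kept apart, and a gene is plotted by the brightest. A probe set shared by eif-1 and another gene was left out, and 38 of the 64 members carry an _s_at or _x_at suffix (probes shared between transcripts or cross-hybridising). Named are all called members, the 4 highest and 4 lowest genes of a comparison by their brightest probe sets, and all ife-, iff-, pab- and eef- genes. Members and gene lists were chosen with earlier results of these data known. Of the listed genes, ppp-1 is now named eif-2Bgamma, a member, and iffb-1 was not analysed here. The steps were tested on simulated data over 15783 probe sets. There, 80% of 2-fold rises in fasting over 4 strains, 24% over 3 strains and 26% in drsh-1 were recovered. On the real arrays the calls ran the other way. Over 4 strains 64 probe sets were called higher and 451 lower, and over 3 strains 2360 and 1406. The simulation thus did not match the arrays in this respect, and its shares do not show how sensitive each fit was here. Alternatives were the filter, normalization, pseudocount, trend, array weights, blocks, gene means and leaving out a strain.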

Additional observations from a re-analysis of the deposited data

How the results depend on the processing

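Each group is 1 array, and intensities have no stated background treatment. The main fits leave 2 or 3 residual degrees of freedom, and those without a strain leave fewer. A lost call therefore does not show that a change was absent. Median member changes kept their sign and moved by less than the spread between strain pairs or foods under all alternatives. Some alternatives could not move them. Dropping a block leaves the fitted changes as they were, and so does dropping another mutant in drsh-1 against wild type. In fasting over 4 strains, the 1 member called higher became 0 with a pseudocount of 64, 0 without the strain block, 0 with genes by their mean probe set and 28 with arrayWeights (2 lower there in place of 0), and leaving out a strain gave 0 to 19 higher and 0 to 1 lower, the highest counts without drsh-1. Over all probe sets the 64 higher and 451 lower became 3692 and 2668 with arrayWeights, 2 and 115 without the strain block, 23 and 295 without the trend, 150 and 537 with arrays centred on their medians, and 3 to 2360 higher and 93 to 1406 lower without a strain. There, 110 were higher with the lowest 50% left out, 109 with a pseudocount of 1 and 40 with one of 64. In fasting over 3 strains, leaving out a strain gave 11 to 21 higher and 0 to 2 lower, and genes by their mean probe set 12 higher and 0 lower, where fewer units were counted. In drsh-1 against wild type, 11 higher became 2 without the food block, 7 with genes by their mean probe set and 2 to 16 without another mutant, and 0 lower became 1 (eif-4A3) under quantile normalization and 1 without the trend. Over all probe sets 1269 higher and 590 lower became 473 and 93 without the food block and 640 and 303 without ain-1. In ain-1 against wild type 1 was higher with arrayWeights (262 higher and 231 lower over all), and in the test of the drsh-1 response 10 were lower with arrayWeights, an alternative added after seeing the data (740 higher and 1273 lower over all). Uncalled changes of eif-2D in fasting over 4 strains (-0.26 to 0.031 without a strain, positive without daf-16) and of eef-2 in daf-16 (-0.0097 under quantile normalization) turned sign. Calls of named probe sets were lost 29 times in fasting over 3 strains, 35 times in drsh-1 and 5 times in fasting over 4 strains, and the cause was not tested.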
